A study of Mus musculus with 4 samples.

Results

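The unfolded protein response and the amino acid response were followed through 10 genes in livers of mice at 10 months of age. The genes were Asns, Trib3, Ddit3, Chac1, Atf5, Atf4, Atf3, Hspa5, Herpud1 and Xbp1, chosen by name as known genes of both responses, out of 18194 genes that the array names. All 10 were measured, each by 1 to 4 probe sets annotated with a single symbol, and the brightest of them on average stood for the gene. Asns, Trib3, Ddit3, Chac1 and Atf5 formed an ATF4 arm of 5 genes and Hspa5, Herpud1 and Xbp1 a chaperone arm of 3 genes, while Atf4 and Atf3 were kept in neither.

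The study crossed the liver carcinogen diethylnitrosamine (DEN) with a diet holding 0.2% cholic acid (CA), a bile acid made by the liver. The 4 groups were DEN with the CA diet, DEN with the control diet (both written as after DEN where diets are compared), the CA diet without DEN, and the control diet without DEN. Each group was 1 Affymetrix array hybridised with the pooled liver RNA of 3 to 5 mice. The sources used here do not give strain, sex, DEN dose or the share of tumour tissue in each pool. With 1 array a group there was no replicate and no test, so every difference is that of 2 pools, and animal-to-animal spread is not known. Values are log2 levels, so that a difference of 1 is 2-fold, and levels under 4.855, the median over all probe sets, were taken as background, since no detection calls were at hand.

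Endoplasmic reticulum (ER) stress and amino acid shortage meet at phosphorylation of the initiation factor eIF2-alpha, by the kinase PERK (Eif2ak3) for the first and by GCN2 (Eif2ak4) for the second. This slows translation in general but favours that of the transcription factor ATF4, which switches on genes of amino acid synthesis, transport and stress signalling. The other branches of the unfolded protein response run through IRE1, which splices Xbp1 mRNA, and through ATF6, and both raise chaperones and the machinery that degrades misfolded proteins. The liver secretes large amounts of plasma protein and depends on these pathways. The array measured mRNA, so neither translation of Atf4 nor splicing of Xbp1 was seen.

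The pools kept a liver profile, with albumin (Alb) between 14.74 and 14.82 on the 4 arrays and the 6 measured hepatocyte markers at a median difference between -0.23 and 0.03 in the comparisons of 2 arrays. Of those 6, Tat was lower with DEN and CA, at 10.57, against 11.81 with DEN alone, 12.22 with CA alone and 12.26 with neither. The tumour markers Afp and Gpc3 marked the DEN pools, with Afp at 12.17 and 12.65 in the DEN pools on the CA and control diets, against 4.10 and 4.77 in the pools without DEN. Summed on the linear scale, the 6 macrophage markers, all measured above the background limit, reached 4676 in the pool with DEN and CA, 3174 with DEN alone, 3277 with CA alone and 2094 with neither. The 4 measured neutrophil markers summed to 270, 203, 120 and 84.8 in the same order of pools, with Elane and Mpo, primary granule genes of neutrophil precursors, under the background limit on their 4-array means. S100a8 and S100a9, abundant in mature neutrophils, were higher with DEN, by a median of 1.74 on the CA diet and 1.43 on the control diet with levels under the limit raised to it. The 5 measured cholangiocyte markers summed to 203, 160, 128 and 106 in that order, with the 4-array means of Krt19, Krt7 and Cftr under the limit and Sox9 higher with DEN by 1.53 on the CA diet and, with the level raised to the limit, 1.20 on the control diet. Epcam, the other marker with a mean above the limit, had DEN differences of 0.11 and -0.05. The 5 B and plasma cell markers summed to 235, 329, 163 and 149, carried by Jchain with DEN differences of 0.91 and 2.41, while the means of Cd79a, Cd79b and Ms4a1 lay under the limit. Mzb1, the other marker with a mean above the limit, had DEN differences of -0.22 and -0.05. The 5 stellate cell and fibroblast markers summed to 2741, 2858, 2474 and 2197, with Col3a1 higher with DEN by 1.22 and 1.94. Col1a1 had DEN differences of 0.51 and, with its level raised to the limit, 0.73. Dcn had -0.22 and -0.09, Lrat -0.39 and -0.41, and Des 0.03 and -0.04. The median over these 5 markers was 0.03 on the CA diet and -0.04 on the control diet. The 4 T and NK cell markers summed to between 133 and 168, with the means of Cd3g and Nkg7 under the limit. The 2 of exocrine pancreas summed to between 426 and 627, carried by Cela1, with Cpa1 under the limit on all 4 arrays. The 4 endothelial markers summed to between 511 and 723, with the mean of Pecam1 under the limit. The part of these cell types in the differences below was not tested, and in pooled tissue fewer cells of a type and less RNA per cell cannot be told apart. As a technical measure, the 18 hybridization control probe sets differed by at most 0.37 in any comparison of 2 arrays.

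With DEN, 3 of the 5 ATF4-arm genes (Asns, Trib3 and Atf5) were at least 2-fold higher on both diets. Ddit3 differed by 0.96 on the CA diet and 0.69 on the control diet, and Chac1 by -1.43 and -0.34. On the control diet 4 of the 10 genes (Asns, Trib3, Atf5 and Atf3) were at least 2-fold higher in the DEN pool, where 5.12% of all 11651 expressed genes were, and none was 2-fold lower, where 0.901% were (6.02% either way). On the CA diet the same comparison had 4 genes at least 2-fold higher (Asns, Trib3, Atf5 and Atf3), against 4.75% of all genes, and 2 at least 2-fold lower (Chac1 and Herpud1), against 1.75% (6.5% either way). The CA diet had few such genes, and they were of the ATF4 arm. Without DEN, Asns was at least 2-fold lower (0.592% of all genes) and Chac1 at least 2-fold higher (0.661%, and 1.25% of all genes either way). After DEN only Asns passed 2-fold among the 10 genes, again lower (0.472%), and none was 2-fold higher (0.266%, and 0.738% either way).

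**Figure D1:**
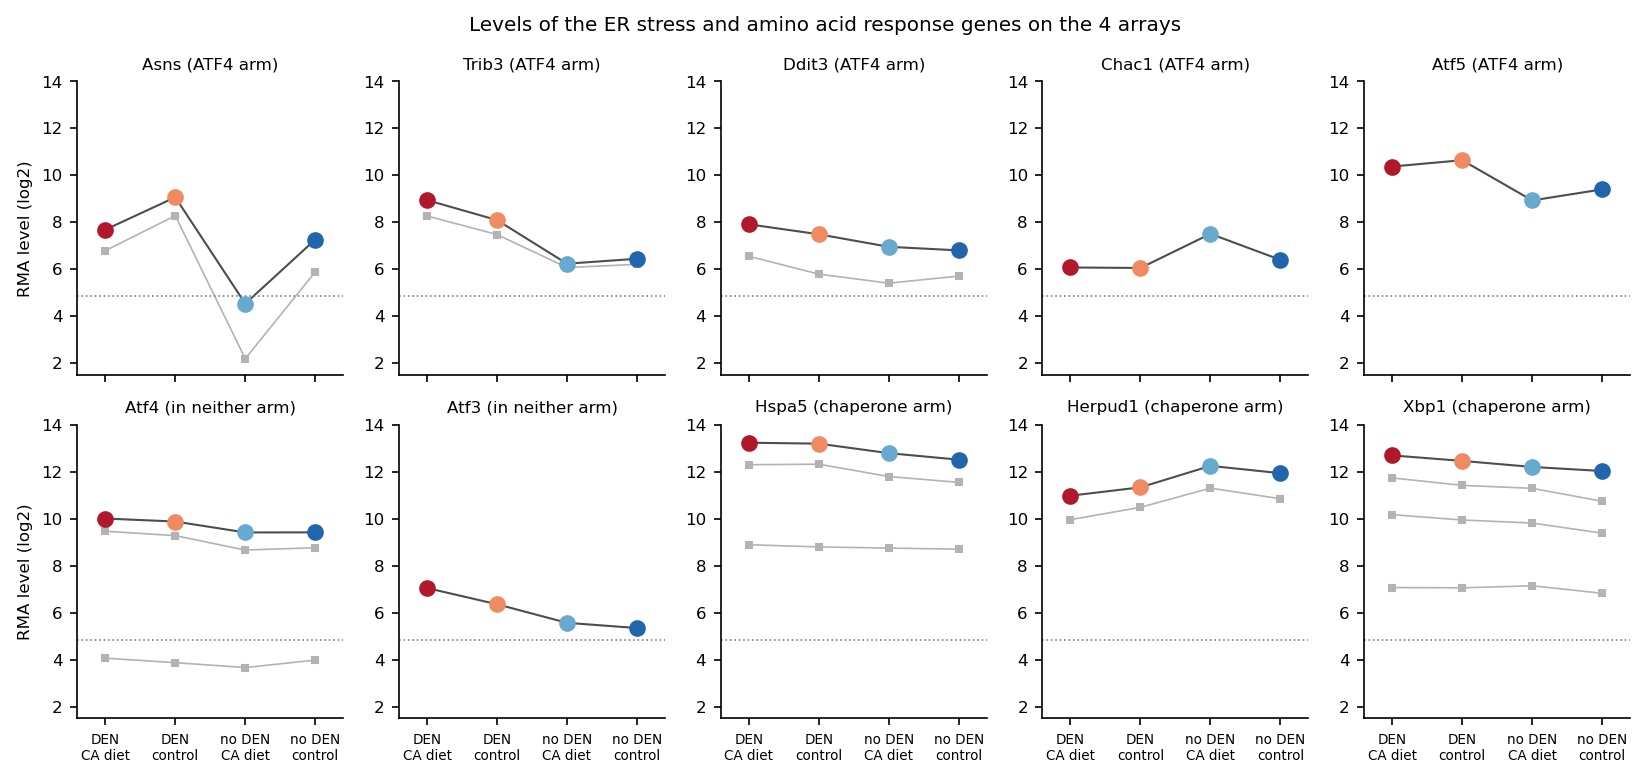
Log2 level (vertical axis) of each of the 10 genes on the 4 arrays (horizontal axis), with large coloured points for the probe set used, small grey squares for other probe sets of the gene, lines joining the values of 1 probe set, and a dotted line at the background limit of 4.855. Asns dips to 4.54 on the CA diet without DEN, Chac1 peaks there at 7.51, and Trib3 and Atf3 are highest with DEN and CA together.

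The promoters of 4 genes of this side of the response are shown because each holds the composite C/EBP-ATF response element, the site through which ATF4 and its C/EBP partners act. The windows run from 250 bases before to 50 bases after the annotated start, on the gene's strand, from RefSeq (GRCm38.p6), and capitals mark matches to TGATGNAAN on either strand.
Asns (chr6:7693160-7693459, minus strand): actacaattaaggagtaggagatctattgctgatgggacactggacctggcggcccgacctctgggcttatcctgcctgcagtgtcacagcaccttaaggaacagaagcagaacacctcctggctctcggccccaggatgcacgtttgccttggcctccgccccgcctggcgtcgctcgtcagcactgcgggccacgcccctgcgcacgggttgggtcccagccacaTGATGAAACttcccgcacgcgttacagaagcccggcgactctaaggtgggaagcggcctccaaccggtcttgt
Trib3 (chr2:152344011-152344310, minus strand): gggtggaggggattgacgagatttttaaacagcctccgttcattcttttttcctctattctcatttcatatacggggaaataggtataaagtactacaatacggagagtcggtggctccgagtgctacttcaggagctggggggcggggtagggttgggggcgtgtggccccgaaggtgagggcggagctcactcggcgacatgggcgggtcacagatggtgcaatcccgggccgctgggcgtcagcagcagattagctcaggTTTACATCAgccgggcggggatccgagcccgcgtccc
Chac1 (chr2:119350992-119351291, plus strand): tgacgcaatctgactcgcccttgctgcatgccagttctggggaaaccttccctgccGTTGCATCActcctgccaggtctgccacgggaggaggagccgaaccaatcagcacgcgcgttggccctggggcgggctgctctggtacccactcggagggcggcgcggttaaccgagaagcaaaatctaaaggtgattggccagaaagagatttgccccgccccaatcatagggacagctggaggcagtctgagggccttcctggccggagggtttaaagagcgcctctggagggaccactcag
Atf3 (chr1:191183284-191183583, minus strand): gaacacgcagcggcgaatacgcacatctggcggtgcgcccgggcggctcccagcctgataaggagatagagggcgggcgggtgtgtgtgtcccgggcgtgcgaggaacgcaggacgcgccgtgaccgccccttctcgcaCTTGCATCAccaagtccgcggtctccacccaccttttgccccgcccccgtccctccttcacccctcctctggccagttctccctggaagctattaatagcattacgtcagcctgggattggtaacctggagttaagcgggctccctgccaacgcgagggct
In Asns the match TGATGAAAC began 23 bases before the start. In Trib3 the match, TGATGTAAA on the opposite strand, lay 14 bases into the transcript. Chac1 held TGATGCAAC and Atf3 TGATGCAAG, both on the opposite strand, at 194 and 111 bases before the start. The motif occurred in the windows of 5 of the 10 genes, the fifth being Herpud1, and in 3.95% of all 32851 promoter windows. A match is a description of these letters and not a measured site, and the motif was chosen as the known ATF4 element. The 5 genes that hold it did not move alike: Asns, Trib3 and Atf3 were higher with DEN on both diets, while Chac1 and Herpud1 were lower on both.

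Asns encodes asparagine synthetase, which makes asparagine from aspartate with glutamine as the nitrogen donor. Its level was 7.69 in the pool with DEN and CA, 9.07 with DEN on the control diet, 4.54 with CA alone and 7.27 with neither. It was thus highest with DEN alone and under the background limit with CA alone. The CA difference was -1.38 after DEN, the 22nd lowest of 11651 expressed genes, and -2.73 without DEN, the 12th lowest. DEN went with a difference of 3.15 on the CA diet and 1.80 on the control diet, and between both treatments together and neither it was 0.42. With the level under the limit raised to it, the CA difference without DEN was -2.41 and the DEN difference on the CA diet 2.83. The other probe set of Asns ran the same way in every comparison, with levels of 6.80, 8.29, 2.20 and 5.89 in the same order of pools.

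Trib3 encodes a pseudokinase that is induced by ATF4 and CHOP and restrains ATF4 in turn. Its level was 8.95 with DEN and CA, 8.10 with DEN on the control diet, 6.24 with CA alone and 6.45 with neither, so that both DEN pools lay above both pools without DEN. The CA diet had a difference of 0.85 from the control diet after DEN, the 64th highest of all expressed genes, and of -0.21 without DEN. The DEN difference was 2.71 on the CA diet and 1.65 on the control diet. The other Trib3 probe set had DEN differences of 2.20 and 1.27 in that order. Trib3 and Asns, both textbook ATF4 targets, thus went to opposite sides on the CA diet after DEN, by 0.85 and -1.38.

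Chac1, a cyclotransferase that degrades glutathione, ran differently. Its level was 6.08 with DEN and CA, 6.06 with DEN on the control diet, 7.51 with CA alone and 6.40 with neither. The pool with CA alone stood out on the high side, the same pool in which Asns was lowest. The CA difference was 0.02 after DEN and 1.11 without DEN, the 55th highest of all expressed genes. The DEN difference was -1.43 on the CA diet, the 59th lowest, and -0.34 on the control diet. Chac1 had a single probe set, so these values have no second measurement on the array.

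Ddit3 encodes CHOP, the transcription factor of prolonged ER stress, and Atf3 a stress-induced factor acting beside ATF4 and CHOP. Ddit3 levels were 7.92 with DEN and CA, 7.49 with DEN on the control diet, 6.96 with CA alone and 6.81 with neither. Atf3 levels were 7.05, 6.36, 5.57 and 5.34 in the same pools. Both genes had the same order of pools, highest with both treatments and lowest with neither. The DEN differences on the CA and control diets were 0.96 and 0.69 for Ddit3 and 1.48 and 1.01 for Atf3. The CA differences after and without DEN were 0.43 and 0.15 for Ddit3 and 0.69 and 0.22 for Atf3. The second probe set of Ddit3 departed from this, with a CA difference of -0.30 without DEN and a DEN difference of 0.08 on the control diet. When every array was centred on the median of expressed genes, the Atf3 difference for DEN on the control diet was 0.85, and after quantile normalization 0.93, both under 2-fold.

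Atf4 and Atf5 encode related leucine zipper factors whose translation is favoured when eIF2-alpha is phosphorylated, so that their mRNA tells only part of their activity. Atf4 had 10.01 with DEN and CA, 9.88 with DEN on the control diet, 9.42 with CA alone and 9.42 with neither. Atf5 had 10.38, 10.65, 8.94 and 9.41 in the same pools. Both were higher in the DEN pools, with Atf4 by 0.59 on the CA diet and 0.46 on the control diet and Atf5 by 1.44 and 1.24. The CA diet went with Atf4 differences of 0.13 after DEN and -0.0039 without DEN, whereas those of Atf5 were -0.27 and -0.47. The second well-expressed probe set of Atf4 had DEN differences of 0.80 and 0.51, and the third lay under the background limit on all 4 arrays.

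**Figure D2:**
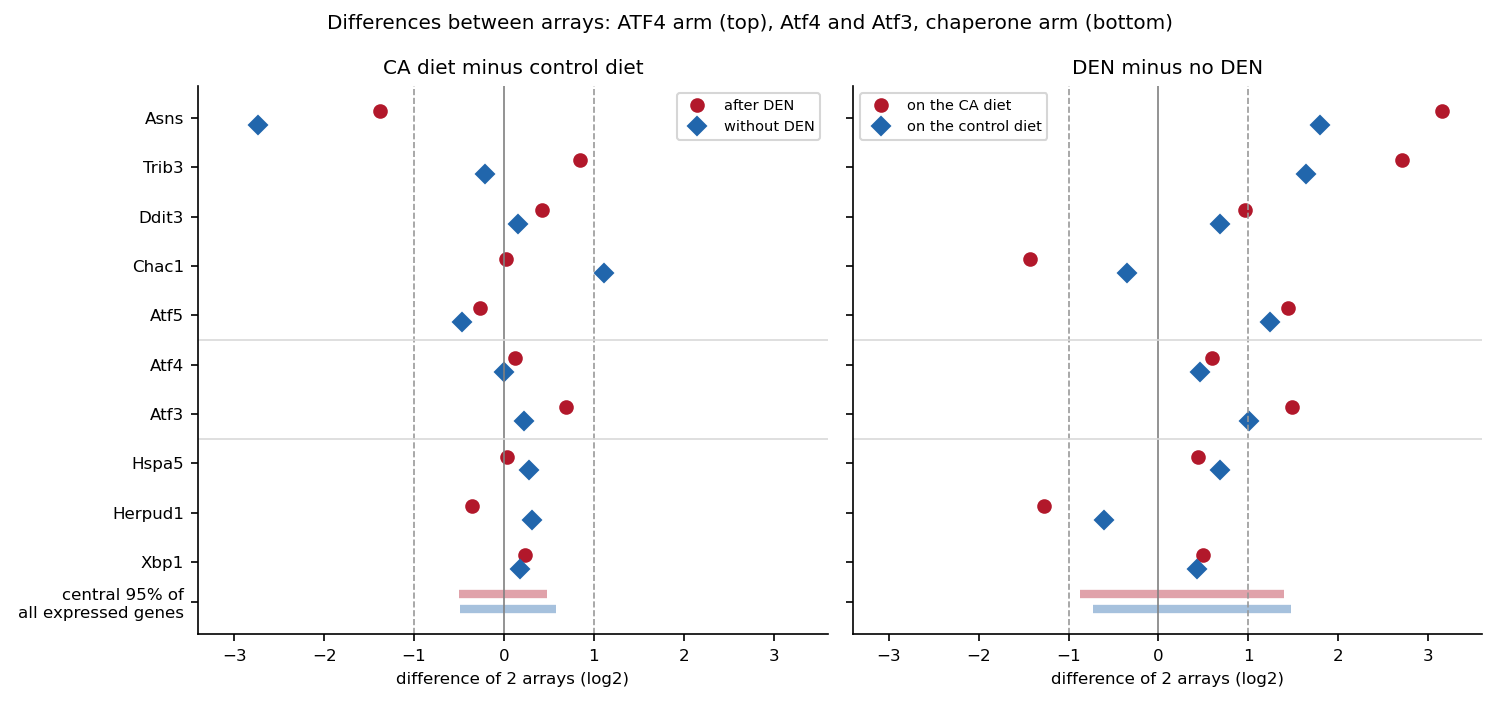
Log2 differences of 2 arrays (horizontal axis) for the 10 genes (rows), for the CA diet against the control diet (left) and DEN against no DEN (right), with red circles for the comparison that includes the pool with DEN and CA and blue diamonds for the other. Dashed lines mark 2-fold and the bars at the foot the central 95% of all expressed genes. Asns and Trib3 lie on opposite sides of 0 for the diet after DEN, and Chac1 and Herpud1 are the rows left of 0 for DEN.

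The chaperone arm is represented by the promoters of Hspa5 and Herpud1, shown because they hold elements of the ER stress branches. Capitals mark the ER stress response element (ERSE: CCAAT, 9 bases of any kind, then CCACG) in Hspa5 and, in Herpud1, both the composite element and the core ACGTGG bound by XBP1 and ATF6 factors, read from either strand.
Hspa5 (chr2:34771840-34772139, plus strand): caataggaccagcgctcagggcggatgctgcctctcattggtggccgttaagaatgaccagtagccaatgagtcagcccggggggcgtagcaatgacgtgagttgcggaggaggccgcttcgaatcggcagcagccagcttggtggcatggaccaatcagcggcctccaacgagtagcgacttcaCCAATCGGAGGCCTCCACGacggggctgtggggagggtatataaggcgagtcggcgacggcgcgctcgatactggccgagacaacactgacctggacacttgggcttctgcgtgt
Herpud1 (chr8:94386179-94386478, plus strand): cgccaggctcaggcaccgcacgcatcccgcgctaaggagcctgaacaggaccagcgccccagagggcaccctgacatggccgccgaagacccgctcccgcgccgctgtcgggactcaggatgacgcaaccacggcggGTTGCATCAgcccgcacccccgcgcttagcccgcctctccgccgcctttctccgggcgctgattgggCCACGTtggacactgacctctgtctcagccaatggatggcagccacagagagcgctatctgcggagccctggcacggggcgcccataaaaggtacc
The element of Hspa5, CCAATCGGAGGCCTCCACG, began 65 bases before the start and was held by 0.119% of all promoter windows. Its first 5 letters are also a CCAAT box, a motif found in 37.4% of windows. In Herpud1 the composite element, TGATGCAAC on the opposite strand, lay 113 bases before the start, and the core ACGTGG 46 bases before it, on the opposite strand. The core occurred in 8.31% of windows. A CCAAT box on the opposite strand lay close to the Herpud1 core, 52 bases before the start. Only the ERSE form given above was searched, so other spacings of its parts were not counted. No window of the 10 genes held the cAMP response element TGACGTCA (1.79% of windows). These windows hold only the bases next to 1 or, for Atf5, 2 annotated starts.

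**Figure D3:**
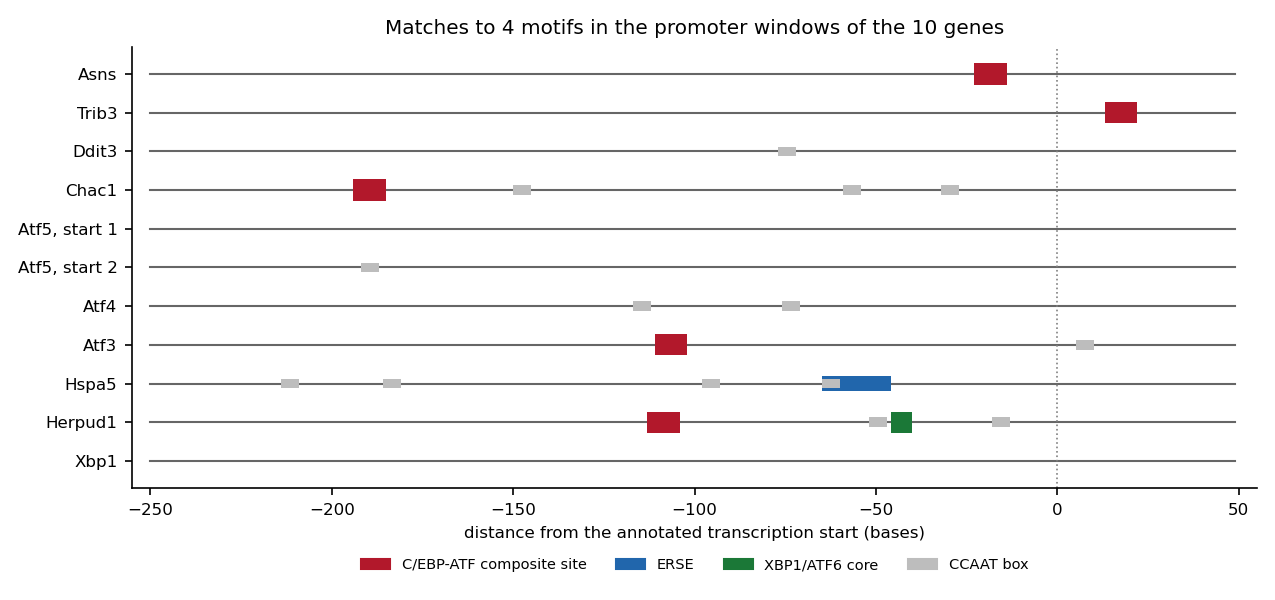
Map of motif matches on either strand in the promoter windows of the 10 genes (rows), by distance in bases from the annotated transcription start (horizontal axis), with Atf5 shown for both of its annotated starts. The composite C/EBP-ATF site lies in 5 windows, the ERSE form that was searched in Hspa5 alone among the 10 genes, and the XBP1/ATF6 core in Herpud1.

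Hspa5 encodes BiP, the main chaperone of the ER lumen. Its level was 13.24 with DEN and CA, 13.20 with DEN on the control diet, 12.79 with CA alone and 12.52 with neither. The order of the pools was that of Ddit3 and Atf3, over a range of 0.72 against 1.11 and 1.70 for those genes. The DEN difference was 0.44 on the CA diet and 0.68 on the control diet, and the CA difference was 0.04 after DEN and 0.28 without DEN. A second probe set had a CA difference of -0.02 after DEN and DEN differences of 0.50 and 0.77, and the third, at a lower level, 0.14 and 0.10. None of these differences reached 2-fold, and between 9.09% and 14.6% of expressed genes had a DEN difference at least as high.

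Xbp1 encodes the transcription factor whose mRNA is spliced by IRE1. Its level was 12.70 with DEN and CA, 12.46 with DEN on the control diet, 12.21 with CA alone and 12.03 with neither, the same order of pools as Hspa5. The DEN difference was 0.49 on the CA diet and 0.43 on the control diet, and the CA difference 0.23 after DEN and 0.17 without DEN. Over its 4 probe sets the DEN difference ran from -0.08 to 0.49 on the CA diet and from 0.23 to 0.68 on the control diet. The CA difference ran from 0.01 to 0.32 after DEN and from 0.17 to 0.55 without DEN, where the probe set used was the lowest.

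Herpud1 encodes a membrane protein that organises the degradation of misfolded ER proteins, and it ran against both other genes of its arm. Its level was 10.98 with DEN and CA, 11.34 with DEN on the control diet, 12.25 with CA alone and 11.94 with neither. Both DEN pools lay below both pools without DEN. The DEN difference was -1.27 on the CA diet, the 91st lowest of all expressed genes, and -0.60 on the control diet. The CA difference was -0.36 after DEN and 0.31 without DEN. The second probe set had the same signs, with DEN differences of -1.34 and -0.37 and CA differences of -0.52 and 0.45.

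The arms differed most for DEN. On the CA diet the median DEN difference was 1.44 over the ATF4 arm and 0.44 over the chaperone arm, a contrast of 1.00, and on the control diet 1.24 and 0.43, a contrast of 0.81. The medians over all expressed genes were 0.0043 and 0.04. For the CA diet the ATF4 arm stood at 0.02 and the chaperone arm at 0.04 after DEN, a contrast of -0.02 (0.01 after quantile normalization), and at -0.21 and 0.28 without DEN, a contrast of -0.49. The median hides a wide spread in the ATF4 arm, whose members ranged from -1.38 to 0.85 for the CA diet after DEN and from -2.73 to 1.11 without DEN. The chaperone arm ranged from -0.36 to 0.23 and from 0.17 to 0.31 in the same comparisons. Each arm thus had 1 gene that ran against the others for DEN, Chac1 in the first and Herpud1 in the second. Between the pool with both treatments and the pool with neither, the ATF4 arm stood at 0.97 and the chaperone arm at 0.67. There, Trib3 (2.50), Atf3 (1.70) and Ddit3 (1.11) were at least 2-fold higher, where 5.97% of expressed genes were, and none of the 10 genes was 2-fold lower (2.2%, and 8.17% either way). When arrays were centred on their medians, Herpud1 was 2-fold lower in this comparison as well (-1.08).

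The diet effect after DEN minus the diet effect without DEN was at least 1 for Asns (1.35) and Trib3 (1.06), where 0.438% of expressed genes reached this, and at most -1 for Chac1 (-1.09), where 0.73% did (1.17% either way). For Asns the CA difference was nearer to 0 after DEN, and its level with CA alone lay under the background limit. With that level raised to the limit the Asns value was 1.03. Over the mean of its probe sets the Trib3 value was 0.995, under the threshold. The remaining 7 genes lay between -0.67 (Herpud1) and 0.47 (Atf3). The central 95% of all expressed genes spanned -0.64 to 0.57.

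The other genes of the pathway were read from 5 lists, chosen with earlier results of these data known, of which 97 genes were expressed. Among 27 expressed ATF4 targets beyond the 10 genes, DEN went with 5 at least 2-fold higher and 1 lower on the CA diet and with 3 higher and none lower on the control diet. Among all expressed genes these shares were 4.75% and 1.75% on the CA diet and 5.12% and 0.901% on the control diet. The higher genes were led by enzymes of serine and proline synthesis. Both counts of higher genes include Psat1 and Aldh18a1, which passed the filter on low levels through the DEN pools alone. They are therefore not to be set against these shares. The other higher genes were Psph, Nupr1 and Fgf21 on the CA diet and Psph alone on the control diet. Psat1, the aminotransferase of serine synthesis, had 7.50 with DEN and CA, 7.23 with DEN on the control diet, 3.26 with CA alone and 2.76 with neither, so that it lay under the background limit in both pools without DEN. It passed the filter on low levels through the DEN pools alone. With levels under the limit raised to it, the DEN difference was 2.64 on the CA diet and 2.37 on the control diet, and 2.77 and 2.39 on its other probe set. Psph, the phosphatase that ends serine synthesis, had DEN differences of 1.48 and 1.64, and Phgdh, the enzyme that begins it, 0.16 and 0.24. Aldh18a1, of proline synthesis, had 6.07 with DEN and CA, 6.01 with DEN on the control diet, 3.79 with CA alone and 3.87 with neither, again under the limit without DEN. With those levels raised to the limit the DEN differences were 1.21 and 1.15. Of its 4 other probe sets, 3 lay under the limit on all 4 arrays. The last had DEN differences of only 0.37 and 0.09 with low levels raised in the same way. The 1 lower gene was Cebpb, a C/EBP factor, with -1.22 on the CA diet and -0.81 on the control diet.

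Nupr1, a small chromatin protein induced by stress, was highest with both treatments. Its level was 6.86 with DEN and CA, 5.98 with DEN on the control diet, 5.58 with CA alone and 5.48 with neither, and the CA difference was 0.88 after DEN and 0.10 without DEN. Its DEN difference was 1.28 on the CA diet and 0.50 on the control diet. The other Nupr1 probe set differed more with DEN, by 2.58 on the CA diet and 1.79 on the control diet. With its level under the limit raised, the latter was 1.67. Its CA difference after DEN was 0.93. Fgf21, a hepatokine raised by ATF4, had DEN differences of 1.04 on the CA diet and 0.99 on the control diet. Cth and Gpt2, of cysteine synthesis and alanine transamination, were lower on the CA diet, with CA differences of -0.76 after DEN and -0.55 without DEN for Cth and -0.62 and -0.54 for Gpt2. The mitochondrial serine enzyme Shmt2 had DEN differences of -0.71 and -0.41. The list median for DEN was 0.16 on the CA diet and 0.23 on the control diet, and none of the 27 genes was 2-fold different for the CA diet, where the median was -0.07 after DEN and -0.01 without DEN.

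The lists of tRNA synthetases, ER folding, ER-associated degradation with secretion, and sensors held 70 expressed genes, of which 1 was 2-fold different in any comparison of 2 arrays, while between 0.738% and 8.17% of all expressed genes were in a single comparison. That gene was Creld2, an ER stress-induced secretory factor, with DEN differences of 0.51 on the CA diet and 1.28 on the control diet. For DEN on the CA and control diets, the medians were 0.22 and 0.25 for 19 tRNA synthetases, 0.12 and 0.25 for 18 folding genes, 0.06 and 0.25 for 20 degradation and secretory genes, and 0.08 and 0.41 for 13 sensors and regulators. Centring each array on its median moved all DEN values by -0.08 on the CA diet and -0.16 on the control diet, and with it the degradation and secretory list stood at -0.02 and 0.09 and the sensors at -0.0036 and 0.25. Among folding genes the co-chaperone Sdf2l1 had DEN differences of 0.74 and 0.94, the secreted factor Manf 0.66 and 0.79, and the disulphide isomerase Pdia6 0.57 and 0.81. On the probe sets used, these 3 genes lay on the side of Hspa5 and Xbp1. A second Pdia6 probe set, at a lower level but above the limit, had DEN differences of only 0.03 and 0.01. In the degradation list Syvn1, the ubiquitin ligase that works with Herpud1, had 0.02 on the CA diet and 0.79 on the control diet. Seryl-tRNA synthetase (Sars) led its list with 0.60 and 0.52.

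For the CA diet without DEN the folding list stood at 0.15, the degradation and secretory list at 0.09 and the sensors at 0.19, with all 13 sensors above 0 between 0.12 and 0.37. After DEN the same lists stood at -0.04 (0.01 with centring), -0.05 and -0.04, with the sensors between -0.41 and 0.31. The medians over all expressed genes were -0.02 after DEN and 0.01 without DEN. Ern1, the gene of IRE1, had CA differences of 0.29 after DEN and 0.37 without DEN. Eif2ak3, the gene of PERK, had -0.13 and 0.34, and Eif2ak4, the gene of GCN2, -0.34 and 0.17. On other Ern1 probe sets above the limit the CA difference was -0.16 and 0.02 after DEN and 0.05 and 0.56 without DEN. Macrophage markers were higher on the CA diet in both settings, with medians of 0.48 after DEN and 0.70 without DEN over 6 of 6 markers, and their part in the list values was not tested.

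**Figure D4:**
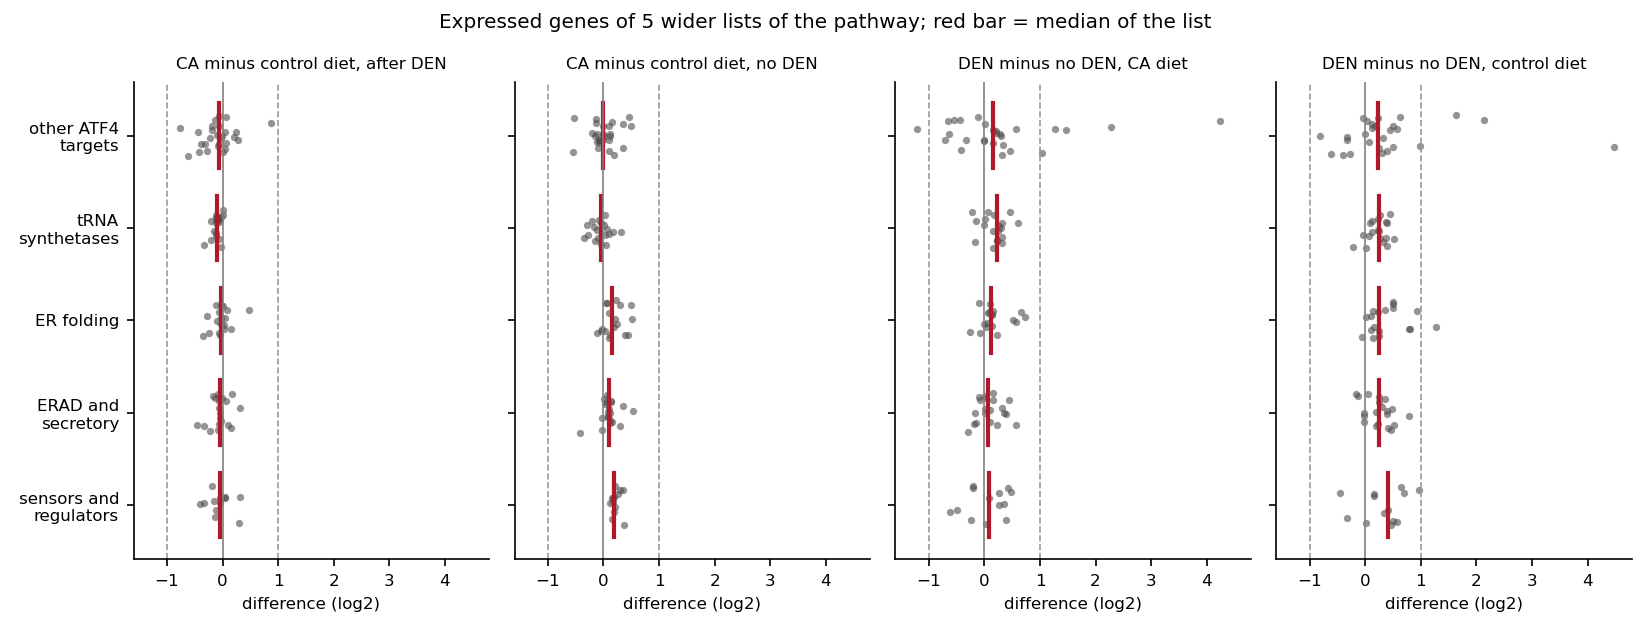
Log2 differences (horizontal axis) of the 97 expressed genes of 5 wider lists (rows), 1 point a gene with vertical jitter, for the CA diet (2 panels on the left) and for DEN (2 panels on the right), with a red bar at each list's median and dashed lines at 2-fold. The points beyond 2 on the right are Psat1 and Aldh18a1, both of the ATF4 target list and both under the background limit without DEN.

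The genes nearest to Asns in pattern were not members of the ATF4 arm. By the Euclidean distance between log2 profiles over the 4 arrays, each centred on its own mean, the 5 nearest of 11247 expressed genes, numbered gene models with Gm or Rik names left out, were Fmn1 (0.57), Tafa2 (0.61), Fabp5 (0.99), Cyp17a1 (1.22) and Nipal1 (1.29). On the array with CA alone, Asns, Fmn1, Tafa2 and Nipal1 lay under the background limit, at 4.54, 4.37, 2.85 and 4.85, so that these distances rest partly on background levels. Fabp5, a fatty acid binding protein gene, had 12.38 with DEN and CA, 12.65 with DEN on the control diet, 8.76 with CA alone and 10.74 with neither. Its other probe set had the same order of pools, whereas the other probe set of Fmn1 had a CA difference of only -0.06 without DEN, against -2.86 for the one used. The other Nipal1 probe set had -0.02 there, against -1.08, and lay under the limit in both pools without DEN. Among the 10 genes Atf5 came nearest to Asns at rank 49 and Trib3 next at rank 174, while Chac1 ranked 11192. The genes nearest to Hspa5 were Pramel12, Adm, Arf6, Msh6 and Arhgef5, at distances from 0.02 to 0.05, and Xbp1 and Atf4 ranked 247 and 366. Another Pramel12 probe set had DEN differences of 0.27 and 0.19 on the CA and control diets, against 0.43 and 0.68. The other Adm probe set had 0.93 and 0.77 with low levels raised to the limit, against 0.42 and 0.72. Other Arf6 probe sets ran from -0.07 to 0.22 and from 0.12 to 0.62, against 0.40 and 0.65.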

How the data were processed

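Hepatic RNA of 4 groups was measured on 1 Affymetrix mouse array each, hybridised with pooled RNA. The authors deposited log2 levels of 45101 probe sets. The submitters' processing notes name RMA and Partek 6.5. RMA makes the distributions of the arrays alike, so a shift of most genes would be removed. The sources used here do not give its options or detection calls. Depth has no meaning for arrays, where the number of arrays limits the precision.

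GEO's platform table named the probe sets, 34958 with 1 symbol, 932 with several and 9211 with none here. All 10 gene identifiers matched the RefSeq annotation. A gene took its probe set with the highest 4-array mean (18194 genes), and genes with a mean of at least 4.855 counted as expressed (11651, all 10 members among them). Called means a log2 difference of at least 1. No test was made. The text names the 10 members, up to 4 genes of each list with the largest absolute difference in each comparison, the 5 genes nearest in profile to Asns and to Hspa5, and marker genes. Phgdh was named after its value was seen. Members, arms, lists and alternatives were chosen with earlier results of these data known. Pycr1, Gdf15, Dars, Sec61g and Eif2s1, and the markers Serpina1a, Spp1, Klrb1c, Ly6g, Prss1, Pnlip and Amy2a5, were not analysed here. Slc7a11, Aldh1l2 and Vldlr lay under the limit. Motifs were matched exactly on both strands. Counting steps were tested on simulated data. Python 3.11.15, numpy 2.4.6 and pandas 2.3.3 were used.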

Additional observations from a re-analysis of the deposited data

Results flagged for a closer look

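For 3 genes the CA diet difference had opposite signs after and without DEN, and with 1 array a group the difference was not tested. Trib3 stood at 0.85 after DEN and -0.21 without DEN, a gap of 1.06. Herpud1 stood at -0.36 after DEN and 0.31 without DEN, a gap of -0.67. Atf4 stood at 0.13 after DEN and -0.0039 without DEN, a gap of 0.13, and the largest gap among hybridization controls was 0.57.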

How the results depend on the processing

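Of 60 differences of the 10 genes, 19 reached 2-fold. All 19 kept their sign under quantile normalization, centring on array medians, low values raised to the limit, and the mean or median over probe sets, and 16 kept 2-fold under each. The exceptions were the gap between diet effects of Trib3 (0.995 with the mean or median over probe sets), Ddit3 for both treatments against neither (0.98 with the mean or median over probe sets, 0.99 with centring) and Atf3 for DEN on the control diet (0.85 with centring, 0.93 with quantile normalization).

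Alternatives moved some summaries by more than the SD of the hybridization controls, or counts by over 1.5 times. With centring, 1 gene (Herpud1) was 2-fold lower for both treatments against neither. With the mean over probe sets the arm contrast was 1.14 for DEN on the CA diet, 0.42 for both treatments against neither and 0.84 for the gap between diet effects, where 1 gene reached 1. With the median over probe sets it was 0.62 for DEN on the control diet, 0.22 for both treatments against neither and 0.94 for the gap, where again 1 gene reached 1. With the mean over each arm it was -0.68 for the CA diet without DEN, 1.48 for DEN on the CA diet and 0.79 for both treatments against neither.

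At 1.5-fold, 2 of the 10 genes were higher for the CA diet after DEN, 1 was lower for DEN on the control diet, 7 were higher and 1 lower for both treatments against neither, and 2 were lower for the gap. Of the 97 list genes, 1 was then higher and 2 lower for the CA diet after DEN, 13 higher and 2 lower for DEN on the control diet, 8 higher and 5 lower for DEN on the CA diet, 13 higher and 5 lower for both treatments against neither, and 2 higher and 4 lower for the gap. The lower threshold itself gives the larger counts. The share of all expressed genes past 1.5-fold is not given here, so these counts cannot be read as a result about these genes. The cause of the other shifts was not tested. No paired analysis was possible because each group was 1 array. Levels near 4.855, such as Asns on the CA diet without DEN, are limited by background.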

Other observations

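Genes of amino acid carriers in the ATF4 target list differed less with DEN than Psat1 and Psph did. Slc3a2, the heavy chain of amino acid exchangers, had DEN differences of 0.29 on the CA diet and 0.44 on the control diet, Slc7a1, an arginine and lysine carrier, 0.32 and 0.50, and Slc7a5, a carrier of large neutral amino acids, 0.01 and 0.12. Slc38a2, a carrier of small neutral amino acids, had -0.64 and -0.01. Slc7a11, the cystine carrier, lay under the background limit on all 4 arrays, at 4.72 with DEN and CA, 4.60 with DEN on the control diet, 4.34 with CA alone and 3.48 with neither. Of these only Slc38a2 was among the genes with the largest differences in its list, and the others were chosen after their values were seen.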
